A study of Mus musculus with 7 samples.

Results

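The nuclear genes of the respiratory chain were followed in sorted cells of mice with glioblastoma. The samples are labelled as cancer cells, and whether the sorted cells were tumour cells was not tested. Libraries labelled Fyn-KO were compared with libraries labelled WT. Members were chosen by symbol alone, as the Nduf a, b, c, s and v genes, the Sdh a to d genes, the Uqcr genes, Cyc1, the Cox4 to Cox8 genes and the Atp5 genes. The pattern found 85 of the 23282 entries of the count table, namely 37 of complex I, 4 of complex II, 9 of complex III, 18 of complex IV and 17 of complex V. Of these, 3 are no subunits of a complex but share the name pattern: Cox7a2l, a factor of supercomplex assembly, and Atp5s and Atp5sl, which carry names derived from ATP synthase. Complexes were assigned by symbol throughout, so Ndufa4, a complex IV subunit, and its isoform gene Ndufa4l2 are counted under complex I. In GENCODE M21 for GRCm38, 83 members were found by symbol and Atp5sl by a synonym (Dmac2), and Atp5o was not matched.

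The respiratory chain sits in the inner mitochondrial membrane. Complex I takes electrons from NADH and complex II from succinate, both pass them to ubiquinone, complex III hands them to cytochrome c, and complex IV (cytochrome c oxidase) gives them to oxygen. Complexes I, III and IV pump protons, and complex V (ATP synthase) uses the proton gradient to make ATP. Several complex IV subunits exist as a ubiquitous gene and a second gene used in heart and skeletal muscle, lung, testis or pericytes, and the c ring of ATP synthase is encoded by 3 genes for 1 mature protein. A few core subunits of complexes I, III, IV and V are encoded in mitochondrial DNA and were not analysed here.

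All animals were adult C57BL/6 mice carrying glioblastoma. The labels describe FACS-sorted, tdTomato-positive cells, that is, cells that make a red fluorescent protein, and 3 WT and 4 Fyn-KO mice each gave 1 library of 3' tags (QuantSeq, a kit that reads the 3' ends of polyadenylated RNA). The sources used here do not say how the tumours were made or which part of Fyn was altered. Libraries held 11911864 to 16371244 counts in WT and 8976745 to 10396507 in Fyn-KO. Fyn, the targeted kinase gene, stood at 719.9 to 1604 counts per 1000000 (CPM) in WT and 74.5 to 189.8 CPM in Fyn-KO. A tag of Fyn can come from outside the altered part, so this level checks the label only in part. The 2 groups differed in much more than Fyn. Markers of the oligodendrocyte lineage (Olig1, Olig2, Sox10 and 5 others, genes also found in glioma cells) summed to 13017 to 28356 CPM in WT, and to 225 to 1269 CPM in the Fyn-KO libraries. All 8 of them fell. Markers of steroid-producing cells summed to 89.0 to 479.9 CPM in WT, and to 24073 to 28711 CPM in the Fyn-KO libraries, with 3 of 8 past the test. Rn45s, a ribosomal RNA precursor, took 1.41 to 2.92% of the counts in WT and 10.5 to 16.6% in Fyn-KO. WT libraries held 7723 to 9924 genes with a count, against 13535 to 14548 in Fyn-KO. The part of these differences in the results below was not tested, and fewer cells of a type cannot be told apart from less RNA per cell.

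Promoters of respiratory chain genes are known to carry sites for NRF1, ETS family factors (GABP) and YY1. RefSeq (GRCm38.p6) gave a promoter, from 250 bases before to 50 after the transcription start, for 69 of the 85 members. The letters TGCGCATGC (NRF1) were found on either strand in 5 members, 7.25% of them, against 1.72% of all 27025 genes with a promoter and 2.23% of the protein-coding ones. The letters CCGGAAGT (ETS) were in 5 members (7.25%, against 4.31% of all and 5.69% of protein-coding genes), and AAGATGGC (YY1) in 11 members (15.9%, against 3.19 and 3.57%). No member held more than 1 of these motifs, so 21 members (30.4%, against 8.76 and 10.9%) held any of them. A match describes the letters of this window and is not evidence of binding. The 120 bases before the start, 5' to 3' on the gene's strand, follow for 5 members whose levels did not overlap between the groups. Motif letters are in capitals. Ndufa6 (chr15:82354292-82354411, minus strand) holds the NRF1 letters, and Uqcrh (chr4:116075071-116075190, minus strand) the ETS letters, each in reverse complement. Cox6a1 (chr5:115348959-115349078, minus strand) and Cox8a (chr19:7217617-7217736, minus strand) are 2 ubiquitous complex IV genes that moved in opposite directions. Cox6b2 (chr7:4753095-4753214, minus strand) is an isoform gene that rose. None of these last 3 holds any of the motifs in the bases shown. Cox8a holds the ETS letters elsewhere in its promoter window.
Ndufa6: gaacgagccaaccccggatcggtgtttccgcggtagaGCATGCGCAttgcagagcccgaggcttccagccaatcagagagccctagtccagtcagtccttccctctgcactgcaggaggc
Uqcrh: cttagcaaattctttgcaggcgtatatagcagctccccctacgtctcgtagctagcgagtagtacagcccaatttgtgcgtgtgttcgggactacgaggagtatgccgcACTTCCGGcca
Cox6a1: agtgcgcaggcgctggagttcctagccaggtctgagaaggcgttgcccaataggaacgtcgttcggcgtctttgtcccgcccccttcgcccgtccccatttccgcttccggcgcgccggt
Cox8a: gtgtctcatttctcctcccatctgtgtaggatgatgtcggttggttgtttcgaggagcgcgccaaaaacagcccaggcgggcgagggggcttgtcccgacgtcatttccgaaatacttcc
Cox6b2: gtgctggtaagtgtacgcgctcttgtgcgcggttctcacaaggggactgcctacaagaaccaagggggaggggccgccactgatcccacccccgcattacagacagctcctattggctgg

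Most respiratory chain genes did not pass the test between the groups, and the 9 that did were small subunits, isoform genes or a gene of the name pattern alone. Cox6a1, Cox4i2, Cox6b2, Ndufa4l2 and Atp5sl rose in Fyn-KO. Cox8a, Cox7a2 and Cox7c of complex IV and Ndufb3 of complex I fell. Of the 85 members, 82 passed the filter on low counts. Cox7b2 and Cox8c had no count, and Cox8b had 1 count in 1 WT library. In the edgeR quasi-likelihood test with Benjamini-Hochberg adjustment over 13122 genes, 5 of 82 members were higher in Fyn-KO (6.10%) and 4 lower (4.88%), and 73 did not pass. Over all genes tested, 19.0% were higher and 3.51% lower. The members' median log2 fold change (Fyn-KO minus WT) was -0.16, and that of all genes tested was 0.45. It was also -0.16 with the 4 members of 0 or 1 count in WT set at the bound their counts allow. All Fyn-KO libraries lay above all WT libraries for 12 members (14.6%, against 30.1% of all genes tested) and below them for 9 (11%, against 7.32%). Over totals without Rn45s and Malat1 these counts were 16 and 6. The share of all genes over those totals was not computed, so that move cannot be read as particular to the members.

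Many genes of the table had no count in WT, so the comparison was repeated over the 6446 genes that reached 10 counts in 2 WT and 3 Fyn-KO libraries. There, 75 members were tested by the edgeR quasi-likelihood test, and 0 were called in either direction, against 0.807% of genes higher and 2.26% lower. At an unadjusted p under 0.05, 6 members were higher and 5 lower. The lowest adjusted p among them was 0.0613, for Ndufb3, and the members' median was 0.20 against -0.21 for all genes of that fit. With all genes tested, 7 members were higher and 8 lower at an unadjusted p under 0.05. The share of all genes at that unadjusted p was not computed for either fit, so these counts cannot be read as particular to the members. The plot of fitted changes shows where 81 of the 82 members lay, by complex.

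**Figure D1:**
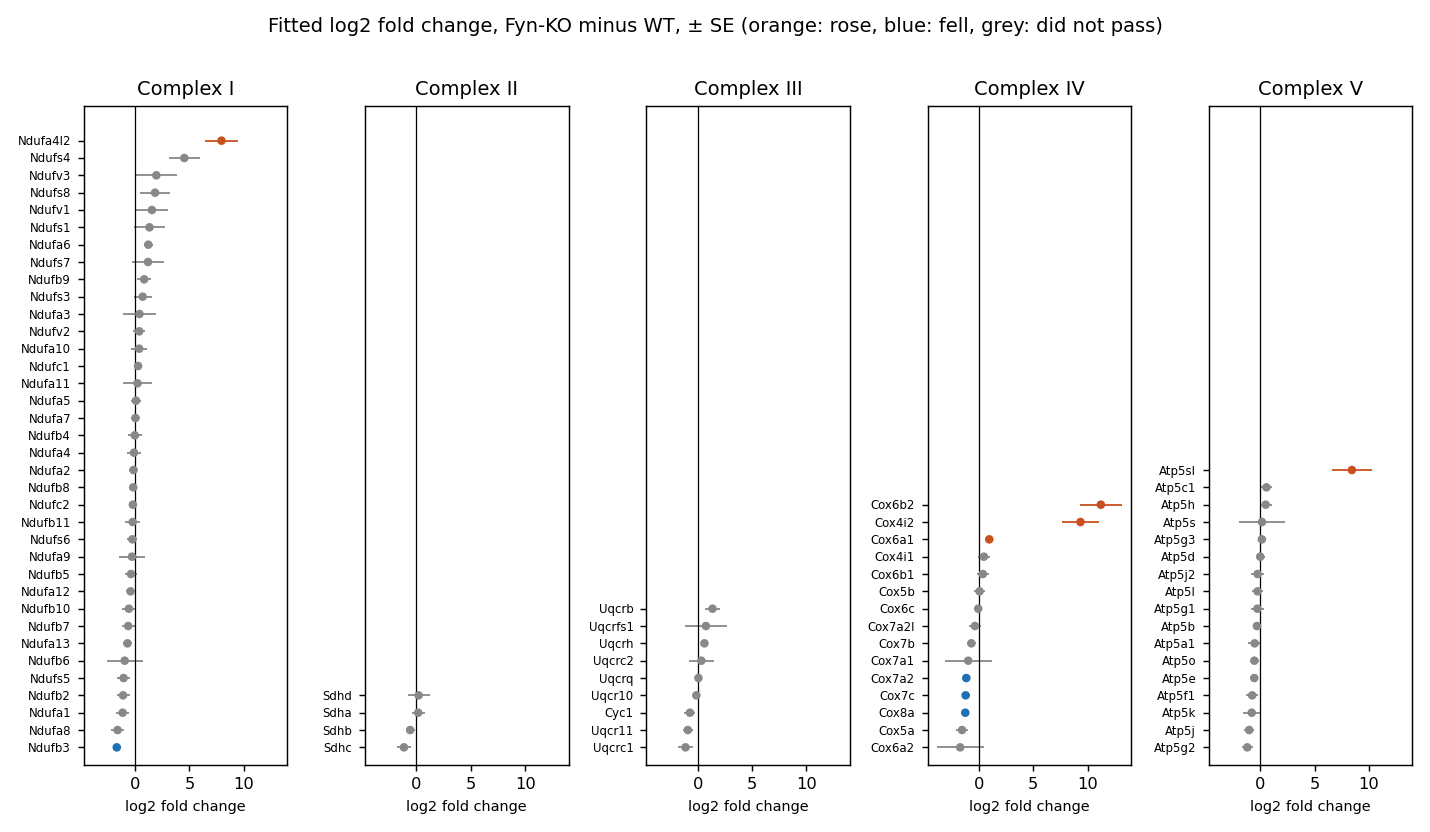
Fitted log2 fold change (Fyn-KO minus WT, with its standard error as a bar) of 81 tested members, 1 panel per complex, ordered by value. Most of the 81 points lie near 0. The 5 members that rose (orange) and the 4 that fell (blue) are in complexes I, IV and V, and wide bars include genes such as Ndufv3 and Uqcrfs1 whose WT libraries differ widely.

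Summed over all members, respiratory chain tags overlapped between the groups. The summed level was 18337, 22031 and 20805 CPM in WT (20391 ± 1882, SD, n = 3) and 18896, 19305, 16627 and 19464 CPM in Fyn-KO (18573 ± 1319, n = 4). The Fyn-KO mean was 0.911 ± 0.106 times the WT mean. Taken over library totals without Rn45s and Malat1, a nuclear non-coding RNA, the ratio was 1.03. By complex, the plot of summed levels shows overlapping libraries for 4 of the 5 complexes. Complex I averaged 6289 ± 450 CPM over WT and 6118 ± 242 CPM over Fyn-KO. Complex II stood at 944 ± 372 and 772 ± 72.0 CPM, and complex III at 2049.9 ± 270.0 and 2216 ± 116 CPM. Complex V stood at 5391 ± 946 and 4907 ± 578 CPM. Complex IV was the exception, at 4953, 6725 and 5475 CPM in WT, and in Fyn-KO at 4704, 4624, 4049 and 4868 CPM. Each WT library lay above each Fyn-KO library there, by as little as 4953 against 4868. Which complexes were separate depended on the total, a comparison added after these values were seen. Over totals without Rn45s and Malat1, complex IV overlapped, at 5152 to 6895 CPM in the WT libraries and 4978 to 5591 CPM in the Fyn-KO libraries. Complexes I and III were then higher in each Fyn-KO library than in any WT library, by 7098 against 6969 CPM and 2529.8 against 2409 CPM at the closest. These sums are descriptions and carry no test.

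**Figure D2:**
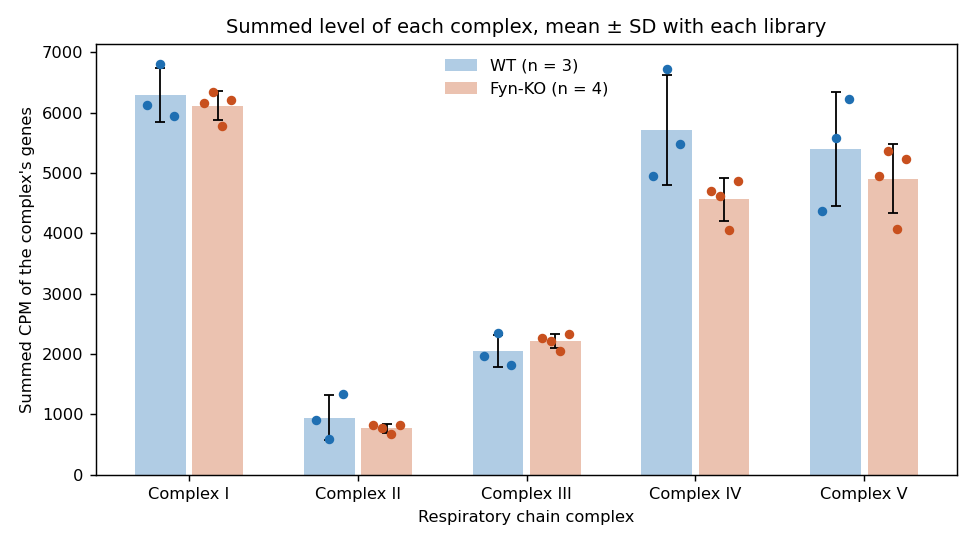
Summed CPM of the member genes of each complex. Bars are group means, error bars 1 SD and points the 3 WT and 4 Fyn-KO libraries. Over these full library totals, only complex IV has WT and Fyn-KO libraries that do not overlap (4953 to 6725 against 4049 to 4868 CPM), and over totals without Rn45s and Malat1 they overlap.

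Among the genes with complex I symbols, Ndufb3 fell, Ndufa4l2 rose and 35 of 37 did not pass. That is 2.70% lower and 2.70% higher, against 3.51 and 19.0% of all genes tested. Ndufb3, an accessory subunit of the membrane arm (chromosome 1, 58586384 to 58595964, plus strand), had WT levels of 663, 618 and 657 CPM and Fyn-KO levels of 265, 240.2, 132 and 231 CPM. The WT libraries were tight (646 ± 24.7 CPM, SD, n = 3), and all of them lay far above all Fyn-KO libraries. The WT mean was 2.97 times that of Fyn-KO, a log2 fold change of -1.68 ± 0.35 (SE) and an edgeR adjusted p of 0.0123. Its call held in each of the 7 fits that left out 1 library. Ndufa2, another accessory subunit of complex I, had WT levels of 503, 247 and 448 CPM and Fyn-KO levels of 375, 347, 482 and 372 CPM. These libraries overlapped and the fitted change was -0.15 ± 0.42 (edgeR adjusted p = 0.879).

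The catalytic core of complex I includes nuclear-encoded subunits that hold the flavin and the iron-sulphur clusters. Among them Ndufs1, Ndufs3, Ndufs7, Ndufs8, Ndufv1 and Ndufv2 had fitted changes above 0, from 0.38 to 1.84. By edgeR none of these 6 genes was called at an adjusted p under 0.05, none passed at an unadjusted p under 0.05, and none was called by DESeq2 or limma-voom. Each had its lowest WT level in replicate 1 or 3, under 1 CPM for Ndufs1, Ndufs7, Ndufs8 and Ndufv1. Ndufs8, an iron-sulphur subunit, had WT levels of 0.157, 46.5 and 42.9 CPM and Fyn-KO levels of 117, 116, 113 and 114 CPM (log2 fold change 1.84 ± 1.38, edgeR adjusted p = 0.446). Ndufv1, the flavin-binding subunit, had WT levels of 0.0783, 56.3 and 78.3 CPM and Fyn-KO levels of 116, 114, 265 and 86.1 CPM (1.55 ± 1.5, adjusted p = 0.580). For both genes the lowest Fyn-KO library lay above the highest WT library, while 1 WT library was close to 0. This held for 28.6% of the 7 nuclear core genes, against 30.1% of all genes tested.

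The members of complex I nearest to the threshold were Ndufs4, Ndufa6 and Ndufa8, a selection made after their values were seen. Ndufs4, an accessory subunit whose loss causes a mouse model of Leigh syndrome, had WT levels of 0.0783, 17 and 5.88 CPM and Fyn-KO levels of 132, 189, 149 and 210.4 CPM. The groups did not overlap, and the change of 4.53 ± 1.41 had an edgeR adjusted p of 0.0539. It passed without WT replicate 1 (adjusted p = 0.0145) or without WT replicate 2 (0.0470), and with all libraries in DESeq2 (adjusted p = 0.0010) but not in limma-voom (0.159). Ndufa6, whose promoter is shown above, had WT levels of 100.2, 244 and 194 CPM and Fyn-KO levels of 473, 502, 303 and 484 CPM (1.22 ± 0.43, adjusted p = 0.0733). It passed without WT replicate 3 (adjusted p = 0.0281). Ndufa8 had WT levels of 302, 132 and 339.9 CPM and Fyn-KO levels of 120.1, 118, 51.9 and 98.0 CPM (-1.60 ± 0.59, adjusted p = 0.0869). It passed without WT replicate 2 (0.014). The map of levels shows these genes beside the rest.

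**Figure D3:**
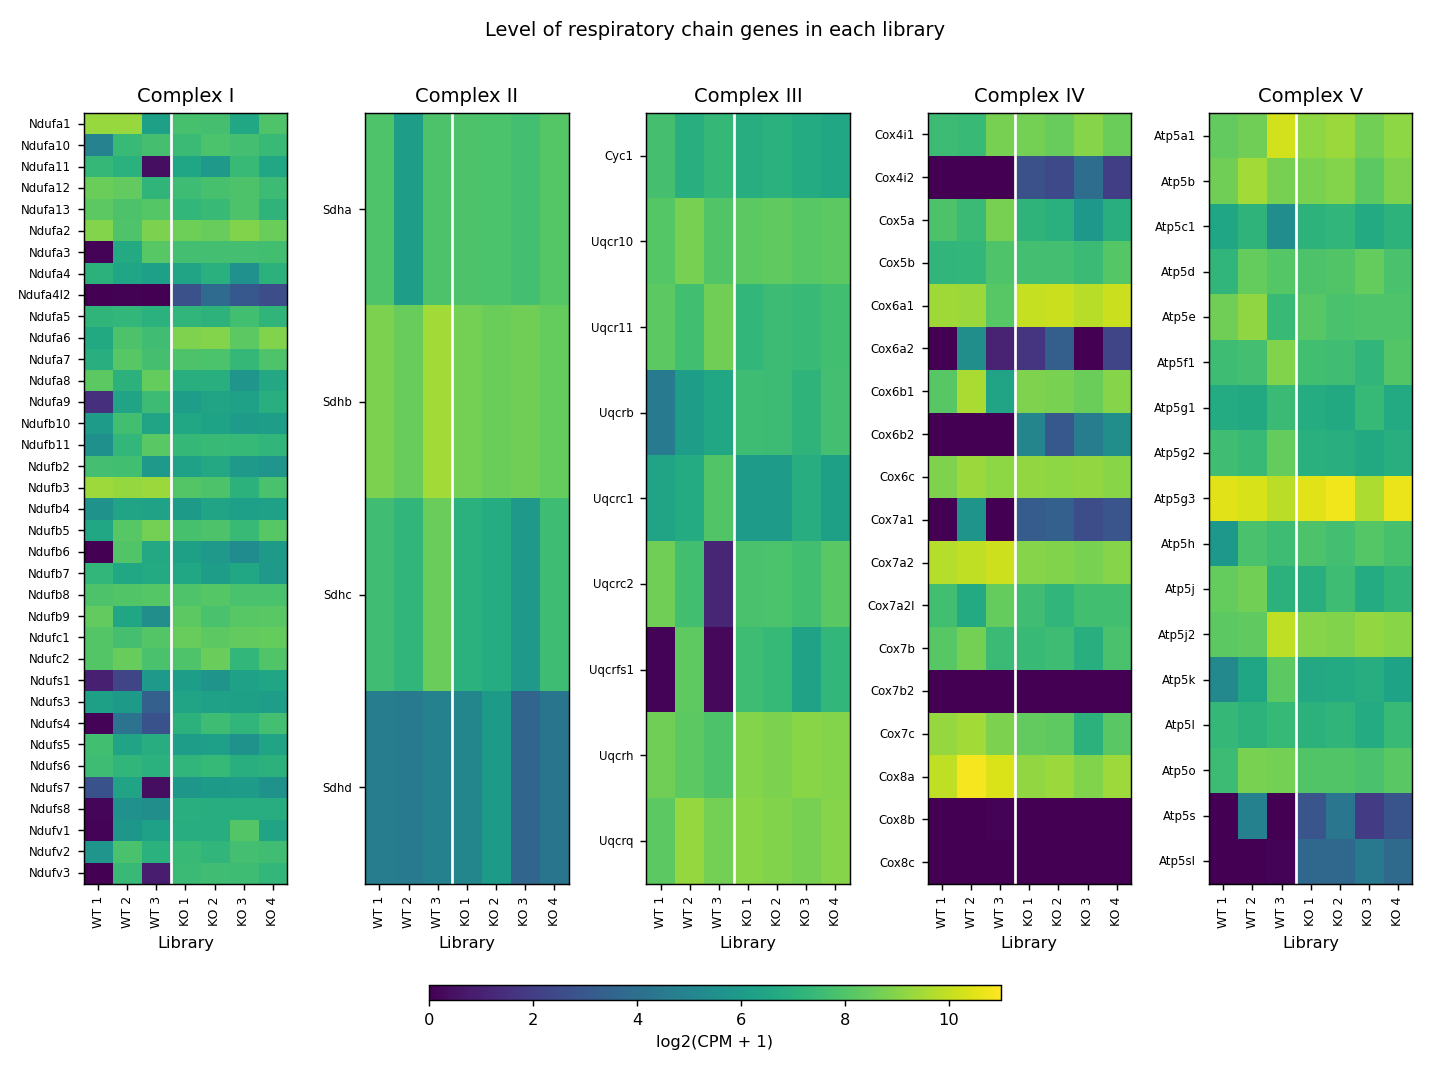
Level of 84 of the 85 members in each library, as log2(CPM + 1), in 1 panel per complex with symbols in alphabetical order and a white line between WT and Fyn-KO. The Fyn-KO columns resemble each other, and some genes are dark (at or near 0) in 1 or 2 WT libraries and bright in another, such as Uqcrfs1 and Ndufv3.

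Complex II, the succinate dehydrogenase shared with the citric acid cycle, showed no called member. By edgeR 0 of its 4 genes passed at an adjusted or an unadjusted p under 0.05, and neither DESeq2 nor limma-voom called any. Sdha, the flavoprotein that oxidises succinate, had WT levels of 248, 67.8 and 246 CPM and Fyn-KO levels of 244, 234, 208 and 274 CPM. Sdhb, the iron-sulphur subunit, had WT levels of 449, 348 and 700.2 CPM and Fyn-KO levels of 414, 368, 391 and 338 CPM. WT replicate 2 was the lowest WT library for both. The membrane anchor Sdhc had WT levels of 194, 149 and 357 CPM and Fyn-KO levels of 128, 111, 58.9 and 194 CPM (-1.14 ± 0.62, adjusted p = 0.262). The other anchor, Sdhd, had WT levels of 23.2, 22.5 and 27.7 CPM and Fyn-KO levels of 32.3, 62.9, 11 and 18.3 CPM. All 4 genes overlapped between the groups, and the adjusted p of the other three was 0.441 to 0.933.

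In complex III, also, 0 of 9 members passed by edgeR at an adjusted or an unadjusted p under 0.05, and none was called by DESeq2 or limma-voom. The 2 small subunits Uqcrb and Uqcrh did not overlap between the groups. Fyn-KO lay above for both, 22.2% of the 9 members against 30.1% of all genes tested. Uqcrb, which lines the ubiquinone site, had WT levels of 21.8, 69.2 and 96.6 CPM and Fyn-KO levels of 189, 183, 143 and 209 CPM. Each Fyn-KO library was above each WT library, and the change of 1.37 ± 0.68 had an edgeR adjusted p of 0.219. Without WT replicate 3 it passed (log2 fold change 2.18, adjusted p = 0.0231). Uqcrh, the hinge protein beside cytochrome c1, had WT levels of 392, 296 and 239 CPM and Fyn-KO levels of 502, 450.2, 533 and 495 CPM. Its groups were separate but close, with a change of 0.63 ± 0.31 and an adjusted p of 0.216. Uqcrc1, a core protein, had WT levels of 84.2, 108 and 259.8 CPM and Fyn-KO levels of 63.9, 64.3, 116 and 74.6 CPM (-1.11 ± 0.70, adjusted p = 0.346). Its level in WT replicate 3 was the highest of all 7 libraries. Uqcrq, a small ubiquinone-binding subunit, had WT levels of 300.4, 612 and 418 CPM and Fyn-KO levels of 529.6, 476, 422 and 507 CPM, which overlapped (adjusted p = 0.919).

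By symbol, with Ndufa4 and Ndufa4l2 left under complex I, complex IV held 6 of the 9 calls, 3 in each direction, among 15 tested members. That is 20% higher and 20% lower, against 19.0 and 3.51% over all genes tested. The 3 that fell, Cox8a, Cox7a2 and Cox7c, encode small subunits that span the membrane at the edge of the enzyme. Cox8a (chromosome 19, 7215153 to 7217616, minus strand) had WT levels of 974, 1821 and 1328 CPM and Fyn-KO levels of 597, 657, 483 and 676 CPM. The lowest WT library lay above the highest Fyn-KO library, and the mean over WT was 2.28 times that over Fyn-KO (log2 fold change -1.25 ± 0.26, edgeR adjusted p = 0.0122). Cox8a was called in each of the 7 fits that left out 1 library. Cox7a2 (chromosome 9, 79755361 to 79759878, minus strand) had WT levels of 879, 987 and 1149 CPM and Fyn-KO levels of 506, 477, 445 and 517 CPM. Both groups were tight and apart, with a WT mean 2.07 times the Fyn-KO mean (-1.16 ± 0.28, edgeR adjusted p = 0.0198). It was called in 4 of those 7 fits, and lost without Fyn-KO replicate 1, 2 or 4, at an adjusted p of 0.0637, 0.0685 and 0.0590.

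Cox7c (chromosome 13, 86044816 to 86046904, minus strand) had WT levels of 611, 713 and 451 CPM and Fyn-KO levels of 323, 312, 132 and 287 CPM. The groups did not overlap, and Fyn-KO replicate 3 was the lowest of all libraries. The mean over WT was 2.24 times that over Fyn-KO (-1.22 ± 0.36, edgeR adjusted p = 0.0424), and the call held in 2 of the 7 fits that left out 1 library. It held without WT replicate 2 or 3 and reached an adjusted p of 0.0585 to 0.0990 without any of the other libraries. With all libraries it was lost with library sizes alone (adjusted p = 0.0577), without a filter (0.0538), in DESeq2 (0.0649) and in limma-voom (0.126). Of the last 200 bases of the Cox7c transcript, 199 align without a mismatch to a transcript of the gene model Gm10012, which is counted apart. Gm10012 had 4533, 8577 and 4948 counts in WT and 2127, 2357, 985 and 2073 in Fyn-KO, with a log2 fold change of -1.20 (edgeR adjusted p = 0.0564). How tags were split between the pair is not known, so the level of Cox7c itself is uncertain.

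Cox6a1 moved the other way. This ubiquitous subunit on the intermembrane side of the enzyme (chromosome 5, 115345642 to 115348981, minus strand) had WT levels of 682, 649.9 and 282 CPM and Fyn-KO levels of 1035, 1115, 907 and 1106 CPM. All Fyn-KO libraries lay above all WT libraries, and the Fyn-KO mean was 1.94 times the WT mean (0.95 ± 0.27, edgeR adjusted p = 0.0351). The call held in 4 of the 7 fits that left out 1 library and was lost without Fyn-KO replicate 1, 2 or 4 (adjusted p = 0.0974, 0.113 and 0.111). It was also lost with library sizes alone (0.0718), without a filter (0.0519), in limma-voom (0.0638) and in DESeq2 (0.149). Within a library, where the total count cancels, the ratio of Cox6a1 to Cox8a was 0.700, 0.357 and 0.212 in the WT libraries and 1.73, 1.70, 1.88 and 1.64 in the Fyn-KO libraries. The ratio of Cox6a1 to Cox7a2 was 0.775, 0.658 and 0.245 in the WT libraries and 2.04, 2.34, 2.04 and 2.14 in the Fyn-KO libraries. The ratio of Cox6a1 to Cox7c was 1.11, 0.912 and 0.625 in the WT libraries and 3.20, 3.57, 6.85 and 3.85 in the Fyn-KO libraries. Each of these ratios was higher in each Fyn-KO library than in any WT library. By contrast, the ratio of Cox7a2 to Cox8a was 0.770 ± 0.198 in WT (n = 3) and 0.815 ± 0.0879 in Fyn-KO (n = 4). These pairs were chosen after their values were seen, and such a ratio shows unequal change without saying which gene changed.

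The other ubiquitous complex IV genes did not pass. Cox5a, which binds a thyroid hormone metabolite and lies at the matrix side, had WT levels of 243, 181 and 423 CPM and Fyn-KO levels of 140, 126, 57.1 and 123 CPM (-1.55 ± 0.57, adjusted p = 0.0896). Its groups did not overlap. Cox4i1, the largest nuclear-encoded subunit, had WT levels of 186, 169.8 and 425 CPM and Fyn-KO levels of 416, 345, 513 and 364 CPM. WT replicate 3 lay within the Fyn-KO range, and without it Cox4i1 passed (log2 fold change 1.322, edgeR adjusted p = 0.0284, against 0.46 and 0.659 with it). Cox6b1 had WT levels of 283, 776 and 83.9 CPM and Fyn-KO levels of 468, 445, 373 and 509 CPM, a WT spread that enclosed the whole Fyn-KO range. Cox7b had WT levels of 279, 415 and 179.7 CPM and Fyn-KO levels of 173, 193, 123 and 231 CPM (-0.69 ± 0.39, adjusted p = 0.278).

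Isoform genes with restricted use appeared at low levels, and 3 of them rose in Fyn-KO. Of the 8 such genes, 5 passed the filter. The 3 that rose are 60.0% of these 5, against 19.0% of all genes tested. Genes absent from WT had to differ to pass the filter, and 1710 of the 13122 genes tested had no WT count. Cox4i2, the isoform of lung and pericytes that takes part in oxygen sensing (chromosome 2, 152754173 to 152765037, plus strand), had no WT count and Fyn-KO levels of 5.65, 4.42, 14.4 and 3.12 CPM. The Fyn-KO mean of 6.91 ± 5.13 CPM (SD, n = 4) was at least 30.9-fold higher than WT, against a floor of 3 counts per WT library (0.223 CPM on average). Its edgeR adjusted p was 0.0124. Cox4i2 made up 1.55 ± 0.82% of the tags of the Cox4 pair in Fyn-KO and 0% in WT, where its partner Cox4i1 had 2379 to 5066 counts per library.

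Cox6b2, the isoform known from testis (chromosome 7, 4751792 to 4753094, minus strand), had no WT count and Fyn-KO levels of 31.1, 7.21, 23.6 and 42.8 CPM. Its Fyn-KO mean of 26.2 ± 14.9 CPM was at least 117-fold higher than WT (edgeR adjusted p = 0.0121), and its share of the Cox6b pair was 5.39 ± 2.65%. The share was lowest in Fyn-KO replicate 2, at 1.60%, and 5.96 to 7.76% in the other three. Of 7 markers of testis germ cells, none had a count in WT and 5, including Tnp1, Prm1 and Cyct, had none in Fyn-KO. Their sum was 0 to 6.35 CPM in the Fyn-KO libraries.

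Ndufa4l2, an isoform of Ndufa4 known from hypoxia and from pericytes (chromosome 10, 127514967 to 127517154, plus strand), had 1 count over all of WT and Fyn-KO levels of 5.54, 13.5, 7.22 and 5.01 CPM. The ratio of pooled levels was 328, with a 95% exact counting interval of 58.5 to 13009.6 and an edgeR adjusted p of 0.0121. Its partner Ndufa4, which carries a complex I name and is a subunit of complex IV, stood at 99.6 ± 31.7 CPM in WT (n = 3) and 98.3 ± 40.6 CPM in Fyn-KO (n = 4). The share of Ndufa4l2 in the pair was 6.09, 9.61, 13.4 and 3.59% in the Fyn-KO libraries. It overlaps Shmt2 on the other strand by 32 exon bases, and the sources used here do not say whether tags were counted by strand. Shmt2 had 0, 3313 and 3951 counts in WT and 252, 387, 367 and 343 in Fyn-KO. The calls of Cox4i2, Cox6b2 and Ndufa4l2 held in each of the 7 fits that left out 1 library. These genes passed the filter through Fyn-KO alone, so neither their calls nor these fits are further support. In limma-voom with sample quality weights none passed (adjusted p = 0.478, 0.492 and 0.463).

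Markers of vascular mural and smooth muscle cells, among them pericytes, summed to 576 to 1260.0 CPM in WT, and to 773 to 987 CPM in the Fyn-KO libraries. Of the 8, Acta2, Myh11 and Kcnj8 rose, Cspg4 fell and 4 did not pass. Over all genes tested, 19.0% rose and 3.51% fell. By fitted change, 6 of the 8 lay above 0 and 2 below. Cspg4 is also on the oligodendrocyte list. The pericyte gene Kcnj8 stood at 0 in WT and 11.9 ± 6.95 CPM in Fyn-KO, and Rgs5 at 0, 0 and 38.4 CPM in WT, and at 43.8 to 58.9 CPM in the Fyn-KO libraries. Kcnj8 passed the filter through Fyn-KO alone, so its call is no further support. Both genes were picked after their values were seen and do not stand for the list. The part of mural cells and pericytes in the isoform levels was not tested.

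**Figure D4:**
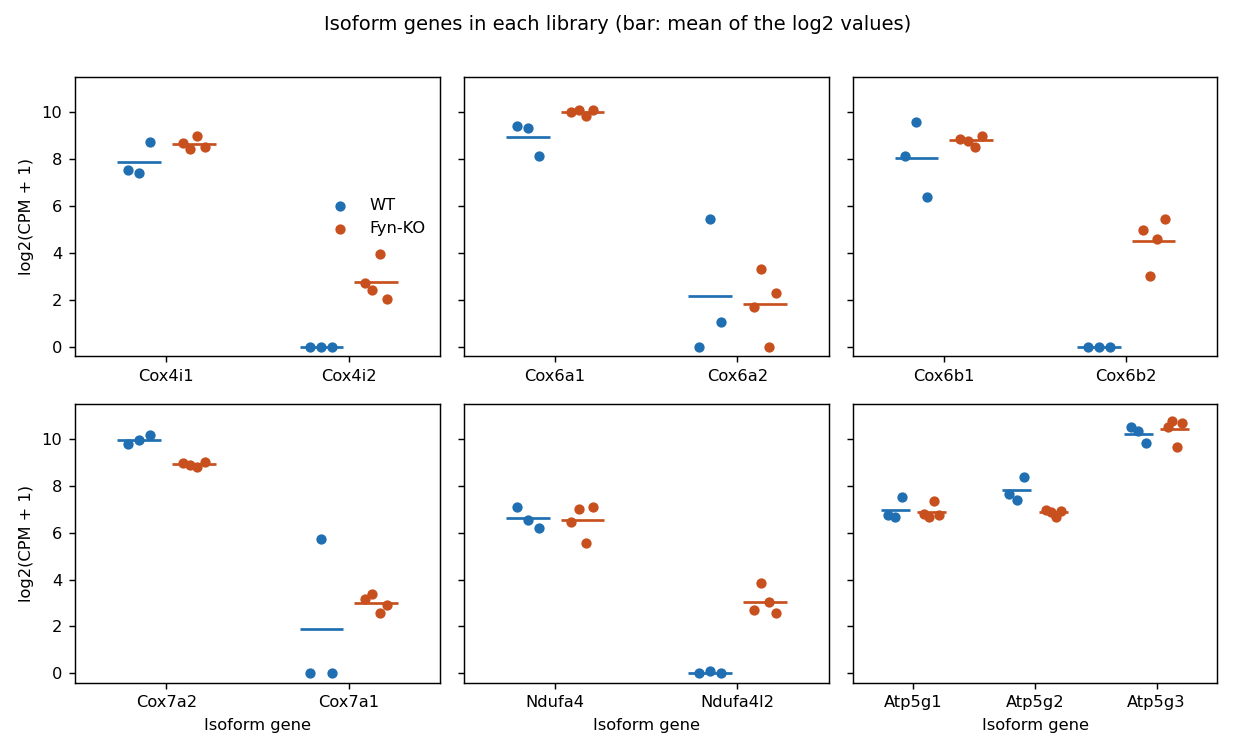
Level of isoform genes and their partners in each library as log2(CPM + 1), with a bar at the mean of the log2 values. Cox4i2, Cox6b2 and Ndufa4l2 are at or near 0 in the WT libraries and between 3.12 and 42.8 CPM in Fyn-KO, and Cox6a2 and Cox7a1 are high in WT replicate 2 alone.

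The muscle isoforms Cox6a2 and Cox7a1 did not pass and were raised in a single WT library. Cox6a2 (chromosome 7, 128205435 to 128206387, minus strand) had WT levels of 0, 42.6 and 1.09 CPM and Fyn-KO levels of 2.24, 9.14, 0 and 3.90 CPM. In WT replicate 2 it made up 6.16% of the Cox6a pair (95% exact binomial interval 5.72 to 6.62%). Cox7a1 (chromosome 7, 30184144 to 30186078, plus strand) had WT levels of 0, 51.3 and 0 CPM and Fyn-KO levels of 8.10, 9.33, 5.04 and 6.46 CPM. Its share of the Cox7a pair in WT replicate 2 was 4.94% (4.62 to 5.28%), and in Fyn-KO it was 1.46 ± 0.36%. Without WT replicate 2, Cox7a1 had no count in WT and was called higher (edgeR adjusted p = 0.0047). Striated muscle markers summed to 18.6, 25.2 and 21.8 CPM in WT, and to 5.87 to 13.7 CPM in the Fyn-KO libraries, and Tnnc2 gave 410 of the counts of WT replicate 2. Cox6a2 shares 70 exon bases with Itgad on the other strand. Itgad had 679 counts in WT replicate 2, beside 698 of Cox6a2, and 67 in Fyn-KO replicate 2, beside 95. In the other 5 libraries Itgad had 0 or 1 count and Cox6a2 had 0 to 35. Cox7b2, Cox8b and Cox8c, isoforms of testis and muscle, had at most 1 count in any library, against 4409 to 29814 counts per library of the ubiquitous Cox8a.

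In ATP synthase, 1 of 17 tested members rose (5.88%) and 0 fell, against 19.0 and 3.51% of all genes tested. The 1 that rose is no subunit. Atp5sl, also named Dmac2 for its part in complex I assembly (chromosome 7, 25619414 to 25625551, plus strand), had 1 count over all of WT and Fyn-KO levels of 11.6, 12, 21 and 12.8 CPM. The ratio of pooled levels was 586 (95% exact counting interval 105 to 23195). It passed the filter through Fyn-KO alone, so its call (edgeR adjusted p = 0.0127) is no further support. The 3 Fyn-KO libraries other than replicate 3 lay close together. Atp5s, the other gene of the name pattern alone, had WT levels of 0, 27.2 and 0 CPM and Fyn-KO levels of 6.39, 18.9, 2.85 and 6.24 CPM (edgeR adjusted p = 0.974).

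The c ring genes Atp5g1, Atp5g2 and Atp5g3, which encode 1 mature protein behind different import sequences, did not pass. Atp5g3 (chromosome 2, 73908447 to 73911326, minus strand) had WT levels of 1459, 1275 and 915 CPM and Fyn-KO levels of 1464, 1738, 812 and 1639.9 CPM. Each group had 1 library well under the others, WT replicate 3 and Fyn-KO replicate 3. Atp5g2 (chromosome 15, 102662864 to 102672352, minus strand) had WT levels of 199, 168 and 334 CPM and Fyn-KO levels of 125, 118, 102 and 120.1 CPM. Its groups did not overlap, and the change of -1.18 ± 0.51 had an edgeR adjusted p of 0.149, and of 0.0369 without WT replicate 2. Atp5g1 (chromosome 11, 96068852 to 96075670, minus strand) had WT levels of 107, 101 and 182 CPM and Fyn-KO levels of 110.4, 102, 164 and 106 CPM. Of the tags of the 3 genes, Atp5g2 gave 11.3, 10.9 and 23.4% in the WT libraries and 7.35, 6.02, 9.43 and 6.44% in the Fyn-KO libraries, and Atp5g3 gave 76.4 ± 10.8% and 84.5 ± 6.22%. Atp5a1, the catalytic-hexamer subunit alpha, had WT levels of 323, 395 and 1221 CPM and Fyn-KO levels of 560.2, 647, 406 and 556 CPM. Its WT replicate 3 lay far above the others, and the change turned from -0.50 to 0.72 without it.

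The WT libraries differed from each other more than the Fyn-KO libraries did, for respiratory chain genes as over the table. Among the 63 members with a mean of 100 CPM or more, the median coefficient of variation was 43.0% in WT and 15.5% in Fyn-KO. Over all 2178 genes at that level, it was 61.0 and 18.6%. In WT, libraries lay within 2-fold of each other for 21 of the 63 members (33.3%, against 24.2% of all genes at that level). In Fyn-KO they did so for 52 members (82.5%, against 77.9%). Of 66 members at 100 CPM or more in some WT library, 5 (7.58%) lay under 1 CPM in another. These were Ndufa11, Ndufa3, Ndufb6, Ndufv3 and Uqcrfs1. Over all genes, 2002 of 4827 of that kind (41.5%) did, and in Fyn-KO it was 0 of 65 members and 1 of 2524 genes. Uqcrfs1, the Rieske iron-sulphur protein of complex III, had WT levels of 0.0783, 310.5 and 0.168 CPM and Fyn-KO levels of 189, 166, 78.9 and 155 CPM. Ndufv3, an accessory subunit of complex I, had WT levels of 0, 167 and 0.839 CPM and Fyn-KO levels of 179, 196, 191 and 155 CPM. For both genes 2 WT libraries were near 0 and the third matched or passed the Fyn-KO level, so a group mean hides the pattern. Within Fyn-KO, replicate 3 was the lowest library for 33 of the 63 members (52.4%, against 46.6% of all genes at that level). It was also the library with the highest share of Rn45s, at 16.6%.

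**Figure D5:**
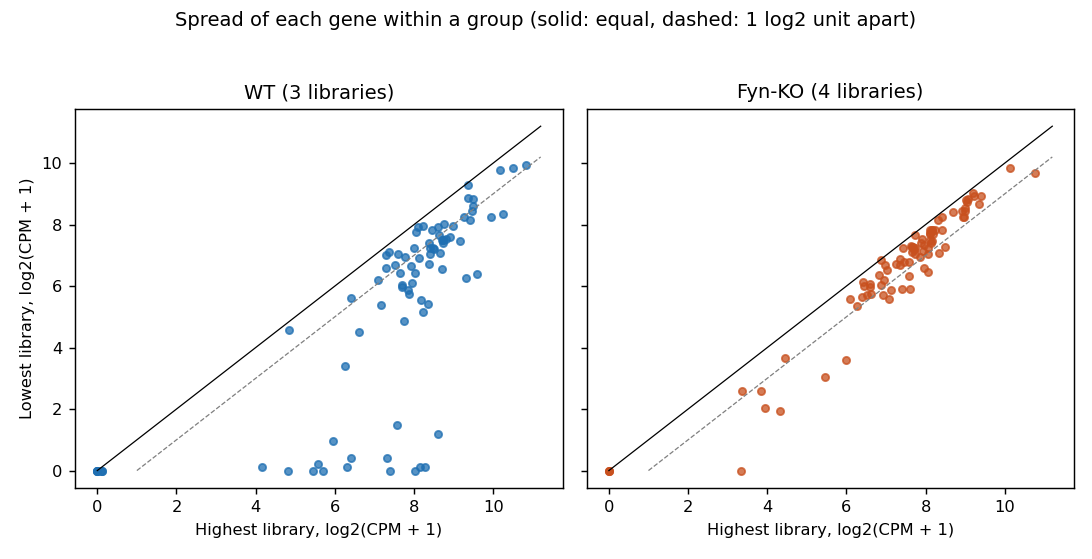
For each member, the lowest library of a group against its highest, as log2(CPM + 1). The solid line marks equal values and the dashed line a gap of 1 log2 unit. Most Fyn-KO points lie near the lines, and a row of WT points along the bottom marks members under 1 CPM in 1 WT library and up to 310.5 CPM in another.

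Other mitochondrial genes, from lists of related functions, gave few calls among genes well counted in WT. Of 45 tested assembly factors of the chain, 8 rose (17.8%, against 19.0% of all genes tested) and 0 fell. The 8 had at most 0.102 CPM on average in WT, and the genes without a WT count below passed the filter through Fyn-KO alone, so they had to differ and their p adds nothing. Cox11, which delivers copper to complex IV, had no WT count and averaged 38.7 ± 18.1 CPM over Fyn-KO (at least 173-fold higher). Tmem126b, an assembly factor of complex I, had no WT count and averaged 6.42 ± 3.52 CPM over Fyn-KO, and Taco1, a translational activator of a mitochondrial complex IV gene, had none and 6.41 ± 3.63 CPM. Of 77 mitochondrial ribosome genes, 4 rose (5.19%) and 0 fell. Among them Mrpl15 had no WT count and averaged 10.7 ± 3.88 CPM over Fyn-KO, Mrps31 had none and 32.9 ± 7.5 CPM, and Mrpl21 had 0.321 ± 0.211 and 12 ± 4.2 CPM. Of 14 genes for electron carriers and coenzyme Q synthesis, Coq3 and Coq10b rose (14.3%) and 0 fell. Both of these genes had at most 3 counts in WT.

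Among well-counted mitochondrial genes, Hspd1 rose and Slc25a4 and Tomm40 fell. Of 19 tested genes of mitochondrial import and cristae, 2 rose (10.5%) and 1 fell (5.26%). Of 7 tested uncoupling and carrier genes, 0 rose and 1 fell (14.3%). Over all genes tested, 19.0% rose and 3.51% fell. Hspd1, the chaperonin of the mitochondrial matrix, had WT levels of 166, 245 and 95.3 CPM and Fyn-KO levels of 1014, 1155, 862 and 1104 CPM. No library overlapped, and the Fyn-KO mean was 6.13 times the WT mean (2.63 ± 0.29, edgeR adjusted p = 0.00804). Slc25a4, the heart and muscle form of the ATP/ADP carrier, had WT levels of 1009, 1114 and 597 CPM and Fyn-KO levels of 259.8, 295, 187 and 273 CPM (-1.86 ± 0.27, adjusted p = 0.0121). Tomm40, the import channel of the outer membrane, averaged 224 ± 45.6 CPM over WT and 49.7 ± 6.23 CPM over Fyn-KO (-2.27 ± 0.51, adjusted p = 0.0144). The calls of these 3 genes held in each fit that left out 1 library. Chchd6, of the cristae junction, had no WT count and averaged 15.4 ± 4.41 CPM over Fyn-KO. By edgeR 0 of 12 regulators of mitochondrial biogenesis and DNA transcription passed at an adjusted or an unadjusted p under 0.05, and DESeq2 called 1 of them higher. Uncoupling protein Ucp1, which marks brown fat, had no count in any library.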

How the data were processed

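RNA of tdTomato-positive cells, labelled as cancer cells, was measured in 7 libraries of 3' tags. Per the submitters' processing notes, Bowtie2, bedtools, DESeq2 1.32.0 and the build mm10 (GRCm38) were used. The sources used here do not give the annotation or the strand of counting. As deposited by the authors, who call the table modified, it holds whole-number counts per gene and library, without molecular identifiers. What was modified is not given. The column of WT replicate 3 was used by its group alone, because another WT sample has the same name as its title. Labels state that cells of each mouse were sorted and prepared independently.

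Genes were filtered with filterByExpr (minimum count 10, minimum total 15) and scaled by TMM. Groups were compared by the two-sided quasi-likelihood F test of edgeR 4.0.16 in R 4.3.3, with Benjamini-Hochberg adjustment over 13122 genes and a threshold of 0.05. The script was tested on simulated data. Log2 fold changes carry an approximate SE, the absolute value over the square root of F. CPM are per 1000000 counts of the library total, and 3' tags were not divided by length, so levels are not ranked between genes. A fold against no count used a floor of 3 counts per library (0.183 to 0.252 CPM in WT). With 1 to 3 counts in a group, the pooled ratio has a 95% exact interval. Floors and intervals cover counting error only. Near-identical 3' ends were searched in GENCODE M21 transcripts with blastn (last 200 bases, at least 95% identity over 100 bases) for 84 members. Of these, 12 had a near-identical stretch in another gene, 3 of them in a gene of the table, and 20 overlapped a gene on the other strand. Ndufb2 and Uqcrc2 are in both counts, as they share 146 and 504 exon bases with Braf and Pdzd9 on the other strand. Gm10012 shares 0 exon bases with its member, Cox7c.

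The alternatives were scaling by RLE or by library size, filters of none and of 50 counts, genes detected in both groups, DESeq2 1.42.0, voom of limma 3.58.1 with quality weights, the replicate number as a block, Rn45s and Malat1 left out, and each library left out. Named genes were Fyn, all members past the threshold, isoform genes and their partners, the Sdh genes, in each complex the 2 with the highest mean CPM and those with the highest and lowest log2 fold change, and up to 3 called genes of each of 7 related lists. A member and a list are not reported here. Other genes were named after their values were seen. Members, lists and rules were chosen with earlier results of these data known. Lists of 13 cell types were checked. Astrocyte markers summed to 1066 ± 406 (WT) and 493 ± 102 CPM (Fyn-KO), neuron markers to 449 ± 58.5 and 67.4 ± 21.9, macrophage and microglia markers to 389 ± 175 and 299 ± 47.2, and endothelial markers to 253 ± 419.9 and 318 ± 22.3. Lung markers summed to 459.6 ± 314 and 4.49 ± 3.86 CPM, liver markers to 363 ± 82.9 and 6.17 ± 1.85, red cell markers to 262 ± 346 and 1073 ± 37.5, and brown fat markers to 25.1 ± 35.9 and 8.34 ± 8.22.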

Additional observations from a re-analysis of the deposited data

Results flagged for a closer look

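Within Fyn-KO, 34 values of 4 libraries each were checked for a library far from the others, by the gap to its nearest neighbour as a share of the group's range. For 2 of them the gap was larger than chance gives in about 1 of 20 groups. Among 34 values checked at that rate, about this many are given by chance. The level of Atp5g1, a c ring gene of ATP synthase, was 164 CPM in Fyn-KO replicate 3 and 102 to 110.4 CPM in the other libraries, a gap of 0.861 of the range. The level of Atp5sl was 21 CPM in the same replicate and 11.6 to 12.8 CPM in the others, a gap of 0.873 of the range. That library also had the highest Rn45s share of the 7, and its part in these levels was not tested.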

How the results depend on the processing

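The number of members called by edgeR depended on the libraries and genes used. Against 5 higher and 4 lower, the fit over genes detected in both groups gave 0 and 0. Over all genes, 2493 were higher and 461 lower of 13122, against 52 and 146 of 6446 in that fit. Limma-voom with quality weights gave 0 higher and 3 lower, and 24 and 320 over all 13122 genes. The replicate block gave 0 and 0, with 6 members higher and 3 lower at an unadjusted p under 0.05. Over all genes the block fit called 188 higher and 135 lower, and their share at an unadjusted p was not computed. Libraries with the same number did not deviate together (r = -0.014, -0.0047 and -0.023 for the 3 shared numbers). With 3 pairs this cannot exclude a shared batch. The labels state no pairing, and the WT numbers are those of the count columns, which differ from the sample titles. Leaving out 1 library gave 4 to 11 higher and 2 to 8 lower: 11 and 8 without WT replicate 2, 10 and 7 without WT replicate 3, and 4 and 2 without Fyn-KO replicate 1, 2 or 4. The calls over all genes moved as well. They were 4585 higher and 839 lower of 13991 without WT replicate 2, and 3121 and 716 of 14091 without WT replicate 3. Without Fyn-KO replicate 1, 2 or 4 they were 2190 to 2370 higher and 247 to 262 lower, of 12375 to 12498. Without WT replicate 2, 9 of its 19 called members were among the 9 called with all libraries. Scaling by RLE or by library size, filters of none or of 50 counts, DESeq2, the table without Rn45s and Malat1, and the fits without WT replicate 1 or Fyn-KO replicate 3 stayed within 1.5 times of both counts. The summed ratio of 0.911 was 1.03 over totals without Rn45s and Malat1 and 0.867 to 0.949 without 1 library.

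For 29 named genes, 457 alternative values were computed. Of these 395 kept direction and side of the threshold, 37 no longer passed, 3 newly passed and 22 turned direction. None of the 9 called members turned. Over genes detected in both groups, the log2 fold change was 0.15 for Atp5g1, 0.25 for Ndufa2 and 0.26 for Ndufa4. In limma-voom it was 0.40 for Atp5a1, 0.028 for Atp5g1, 1.25 for Cox7a1, 0.35 for Ndufa2 and 0.13 for Ndufa4. With the replicate block it was 6.37 for Cox7a1 and 0.011 for Ndufa2. Without 1 library it ranged from -0.87 to 0.72 for Atp5a1, from -0.54 to 0.34 for Atp5g1, from -2.61 to 2.34 for Cox6a2, from -0.058 to 1.15 for Cox6b1, from -1.56 to 9.15 for Cox7a1, from -0.49 to 0.15 for Ndufa2, from -0.28 to 0.25 for Ndufa4, from -0.29 to 0.63 for Sdha, from -0.89 to 0.022 for Sdhb, from -0.37 to 0.61 for Sdhd, and from -0.15 to 0.25 for Uqcrq. Why these values moved was not tested. With all scalings the median over all genes lay at 0.43 to 0.45. At this depth a WT level under 0.183 to 0.252 CPM cannot be told from 0.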
